A study of Mus musculus with 2 samples.

Results

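The 8 cyclin-dependent kinase inhibitor genes Cdkn1a, Cdkn1b, Cdkn1c, Cdkn2a, Cdkn2b, Cdkn2c, Cdkn2d and Cdkn3 were taken by name from an RNA sequencing table of 23365 genes in mouse embryonic fibroblasts, mesenchymal cells grown in culture from embryos. The study sequenced 2 genotypes, "TET1/TET2 knocked out" and "Wild type", with 1 library each. TET1 and TET2 oxidize 5-methylcytosine in DNA, and the series title places them in the control of developmental genes through methylation canyons. Strain, embryonic age, passage number and the kind of knock-out allele were not given in the sources used here. A table of the authors' own comparison sets a condition B against a condition A in columns whose names match neither genotype label, so no value below is assigned to knock-out or wild-type cells. A ratio above 1 means higher in condition B. Ratios, means and p-values of single genes are those of the authors' deposited table. Since each genotype had 1 library, differences have no replicate check, and how far cultures of 1 genotype differ from each other is unknown.

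Cyclin-dependent kinase inhibitors bind the kinases that drive the cell cycle, or the cyclins that activate them, and hold cells in or before G1. The Cip/Kip proteins p21 (Cdkn1a), p27 (Cdkn1b) and p57 (Cdkn1c) act mainly on cyclin E and cyclin A complexes of CDK2, while the Ink4 proteins p15 (Cdkn2b), p16 (from Cdkn2a), p18 (Cdkn2c) and p19Ink4d (Cdkn2d) bind CDK4 and CDK6. Cdkn2a also encodes p19Arf, which shields p53 from MDM2 and is read in another frame from a start of its own. In cultured mouse embryonic fibroblasts the Ink4-Arf locus is known to become active with passage. Cdkn3 encodes a phosphatase of CDKs, and its RNA is known to be most abundant in dividing cells.

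The genes differed in both directions. Cdkn2a, Cdkn2b and Cdkn1a were higher in condition B by at least 2-fold, Cdkn1b, Cdkn2c and Cdkn3 were lower by at least 2-fold, and Cdkn1c and Cdkn2d lay within that range. All 8 genes reached the minimum used here, a mean normalized count of 50 over both conditions. A normalized count is the number of reads on a gene divided by the size factor of its library. Thus 6 of 8 inhibitor genes were past 2-fold in either direction (a log2 ratio of 1 or more, or of -1 or less), as were 17.9% of the 12401 genes at this minimum. In each direction it was 3 of 8, beside 8.31% of all genes higher and 9.60% lower in condition B. The median log2 ratio of the 8 genes was -0.31, and that of all genes was -0.04 with quartiles of -0.39 and 0.30. The authors' deposited table gives 2 of the 8 genes an adjusted p below 0.1, as it does 2.29% of the 17339 genes with a p-value. They are Cdkn2a, in the direction that 1.42% of genes took at this p, and Cdkn1b, in the lower direction taken by 0.871%. All 397 genes at this adjusted p reached the minimum mean, so the shares among the 12401 genes are higher than these. These p-values set 1 library against another and do not test the genotypes. For 4 of the 8 genes the authors' adjusted p is 1.

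**Figure D1:**
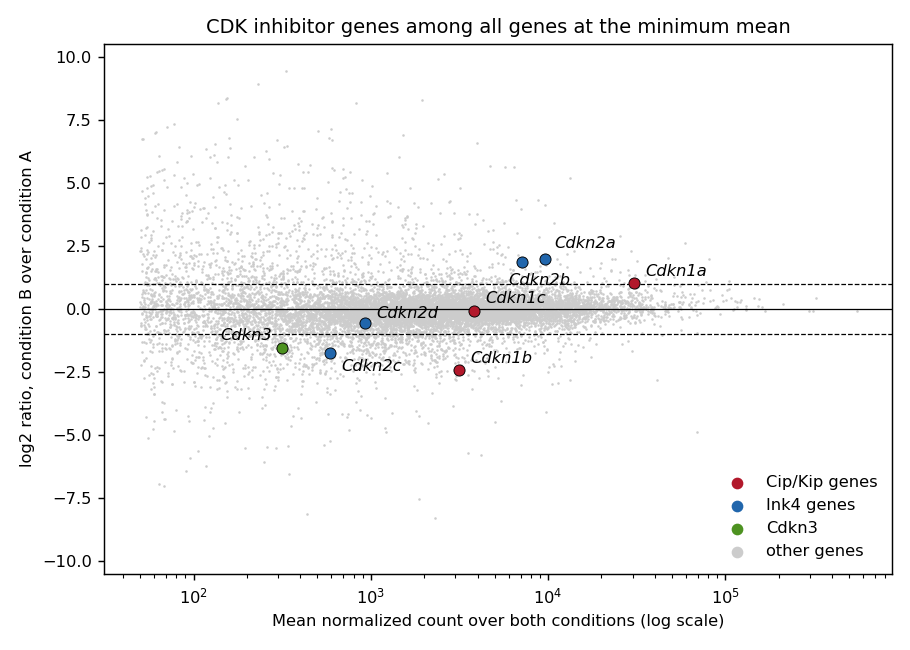
Log2 ratio of condition B over condition A (vertical axis) against the mean normalized count over both conditions (horizontal log axis) for genes with a mean of at least 50, in grey, with the 8 inhibitor genes coloured by family. Dashed lines mark log2 ratios of 1 and -1, and 6 genes with an infinite ratio are not drawn. Cdkn2a and Cdkn2b lie close together near a log2 ratio of 2, Cdkn1b lies lowest of the 8 at -2.41, and Cdkn1c lies near 0.

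The promoter bases of Cdkn2a, Cdkn2b and Cdkn1b, the 3 genes with the largest log2 ratios in size, are shown because the study concerns DNA methylation, which falls on CpG dinucleotides. They are the 250 bases before an annotated start, from RefSeq on GRCm38.p6, a later build than the mm9 named by the submitters, and they carry no measurement of their own. Sequences were found for 7 of 8 genes, in 10 windows, and for Cdkn1c none was matched. The Arf start of Cdkn2a lies at chr4:89294620-89294869 and its p16 start at chr4:89282193-89282442, both on the minus strand, as is Cdkn2b at chr4:89311033-89311282. Cdkn1b lies on the plus strand at chr6:134920151-134920400. Capitals mark CpG dinucleotides.
Cdkn2a Arf start: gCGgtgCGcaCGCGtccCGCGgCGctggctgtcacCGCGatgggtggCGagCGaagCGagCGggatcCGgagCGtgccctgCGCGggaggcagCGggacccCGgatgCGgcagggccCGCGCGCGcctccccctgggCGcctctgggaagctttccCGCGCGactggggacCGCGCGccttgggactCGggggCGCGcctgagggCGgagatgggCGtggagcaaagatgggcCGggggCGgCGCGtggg
Cdkn2a p16 start: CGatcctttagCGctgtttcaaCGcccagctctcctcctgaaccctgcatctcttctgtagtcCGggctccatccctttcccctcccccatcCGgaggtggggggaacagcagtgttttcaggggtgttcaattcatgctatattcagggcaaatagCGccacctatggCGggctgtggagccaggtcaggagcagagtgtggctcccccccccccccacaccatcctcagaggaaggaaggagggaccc
Cdkn2b: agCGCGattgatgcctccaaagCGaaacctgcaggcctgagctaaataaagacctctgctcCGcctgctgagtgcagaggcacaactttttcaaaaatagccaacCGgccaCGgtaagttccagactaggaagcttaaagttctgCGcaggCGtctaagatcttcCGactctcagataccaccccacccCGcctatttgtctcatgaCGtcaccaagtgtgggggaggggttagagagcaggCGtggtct
Cdkn1b: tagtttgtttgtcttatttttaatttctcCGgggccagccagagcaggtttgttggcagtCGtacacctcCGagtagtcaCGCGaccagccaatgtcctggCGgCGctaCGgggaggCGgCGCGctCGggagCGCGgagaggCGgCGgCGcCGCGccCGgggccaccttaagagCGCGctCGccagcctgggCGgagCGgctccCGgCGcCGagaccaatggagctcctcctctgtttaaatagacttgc
The windows differed widely in CpG content. The Arf start held 40 CpG dinucleotides, more than 98.7% of 32851 RefSeq windows of the same length, whose median was 6. The p16 start of the same gene held 7, Cdkn2b held 12 and Cdkn1b held 28. Counts ran from 2 to 40 among the genes higher in condition B. Among those lower in it they ran from 6, equal to the median of all windows, to 29. Of the other windows, the 2 of Cdkn2c held 29 and 6, Cdkn3 held 18 and Cdkn2d held 16.

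**Figure D2:**
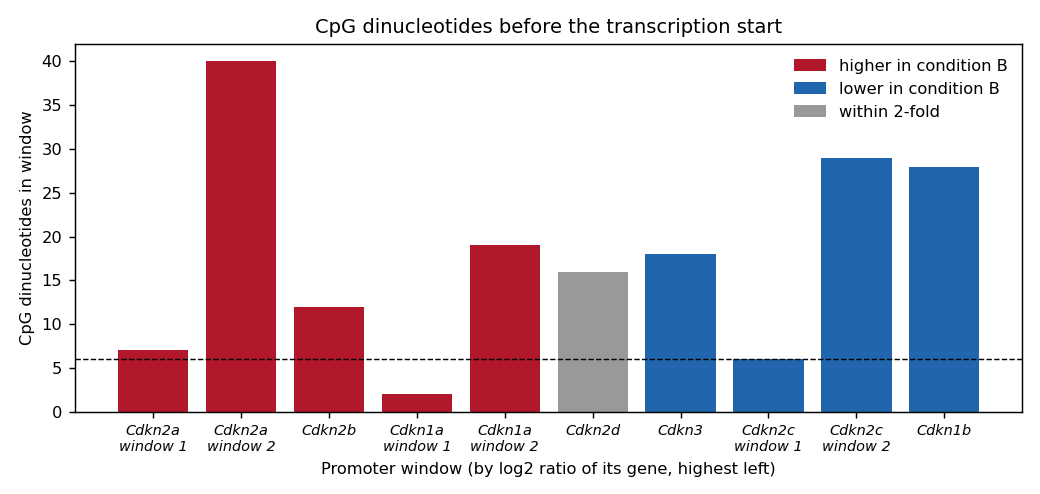
Number of CpG dinucleotides (vertical axis) in the 250 bases before each annotated start, with windows ordered along the horizontal axis by the log2 ratio of their gene and coloured by whether it is past 2-fold. Window 1 of Cdkn2a is the p16 start and window 2 the Arf start, and the dashed line is the median of all RefSeq windows, 6. Counts run from 2 to 40 among genes higher in condition B and from 6, equal to that median, to 29 among genes lower in it.

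Cdkn2a and Cdkn2b, which lie side by side on chromosome 4, were higher in condition B by nearly the same factor. The authors' deposited table lists Cdkn2a at a mean normalized count of 9644 and a 3.98-fold higher level in condition B (adjusted p = 0.0854). The authors' deposited table lists Cdkn2b at a mean of 7169 and a 3.67-fold higher level (raw p = 0.00348, adjusted p = 0.135). Their log2 ratios in the authors' deposited table, 1.99 and 1.87, exceeded those of 96.1% and 95.9% of genes at the minimum mean. The longest stretch shared by annotated transcripts of these paralogs was 23 bases, and 0 stretches of 50 bases were shared between any pair of the 8 genes. The table holds 1 value for Cdkn2a, so p16 and p19Arf transcripts could not be told apart. The kit does not mark strand, and no annotated exon of another gene overlaps either gene.

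The difference was not seen in the next well-expressed gene on the Cdkn2a side. Mtap, which encodes a methionine salvage enzyme and adjoins Cdkn2a, stands in the authors' deposited table at a log2 ratio of 0.16 and a mean normalized count of 12535. On the Cdkn2b side the nearest gene at the minimum mean was Elavl2, an RNA-binding protein gene with 3 less abundant genes of the table in between. The authors' deposited table puts Elavl2 at 12.4-fold higher in condition B, at a mean of 260 (adjusted p = 0.0502). Of the 4 genes listed as neighbours of the locus, 3 reached the minimum mean. Of these, 1 was past 2-fold higher and 0 past 2-fold lower, beside 8.31% and 9.60% of all genes. The 3 had a median log2 ratio of 0.16.

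Cdkn2c and Cdkn2d, the other Ink4 genes, lie outside that locus, and both had log2 ratios below 0. The authors' deposited table puts Cdkn2c at 3.35-fold lower in condition B, at a mean normalized count of 589 (raw p = 0.0316, adjusted p = 0.594). Its log2 ratio in the authors' deposited table, -1.74, was above that of only 3.94% of genes. Cdkn2d has a mean of 931 and a log2 ratio of -0.57 per the authors' deposited table, within 2-fold (adjusted p = 1). The genes beside Cdkn2c did not share its difference, since the authors' deposited table gives Rnf11 and Faf1 log2 ratios of 0.34 and 0.01. For Kri1 and Slc44a2, beside Cdkn2d, the authors' deposited table gives -0.16 and 0.42.

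Of the 3 Cip/Kip genes, Cdkn1a was past 2-fold higher, Cdkn1b past 2-fold lower and Cdkn1c close to 0 on the log2 scale. Cdkn1a, a main target of p53 that arrests the cycle after damage, had the highest mean normalized count of the 8 in the authors' deposited table, 30715, rank 217 of all genes. The authors' deposited table puts it at 2.05-fold higher in condition B, a log2 ratio of 1.03 that is just past 2-fold (raw p = 0.0921, adjusted p = 1). Cdkn1b, which holds resting cells out of the cycle, was 5.30-fold lower with a mean of 3156 (adjusted p = 0.0252 in the authors' deposited table). Only 1.67% of genes had a lower log2 ratio in the authors' deposited table than Cdkn1b at -2.41. Cdkn1c, which is expressed from the maternal allele, had a mean of 3823 and a log2 ratio of -0.06 (adjusted p = 1 in the authors' deposited table). Cdkn1a and Cdkn1b, whose proteins both act on CDK2, thus had log2 ratios of opposite sign.

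The genes beside Cdkn1a were on the other side of 0, while 1 of those beside Cdkn1b was also past 2-fold lower. Srsf3 and Ppil1, on either side of Cdkn1a, had log2 ratios of -0.56 and -0.84 per the authors' deposited table. Gpr19, an orphan receptor gene near Cdkn1b with a mean normalized count of 184, has a log2 ratio of -1.40 per the authors' deposited table, and Ddx47 on the other side one of -0.38. Around Cdkn1c, which belongs to the imprinted domain governed by the noncoding RNA Kcnq1ot1, 6 of 11 genes reached the minimum mean. Of these, 1 was past 2-fold higher and 0 past 2-fold lower, beside 8.31% and 9.60% of all genes. The median log2 ratio of the 6 was 0.72. Kcnq1ot1 itself has a log2 ratio of -0.08 per the authors' deposited table, close to that of Cdkn1c. Slc22a18, the next gene and an organic cation transporter, stands 3.23-fold higher there per the authors' deposited table, at a mean of 277 (adjusted p = 1). Phlda2, another imprinted gene of the domain, has a mean of 10.2 in the authors' deposited table, under the minimum, and its ratio is not interpreted. Kcnq1ot1 runs antisense within Kcnq1, and without strand reads from where they overlap cannot be told apart. Kcnq1 has a mean of 8.91 in the authors' deposited table, under the minimum. Annotated antisense genes also overlap exons of Cdkn1a and Cdkn1c, 1 each, and reads from them could count toward these genes.

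Cdkn3, the phosphatase gene, had the lowest mean normalized count of the 8 in the authors' deposited table, 315. The authors' deposited table puts it at 2.88-fold lower in condition B, a log2 ratio of -1.52 (raw p = 0.106, adjusted p = 1). Of 13 proliferation markers, 11 were past 2-fold lower and 0 past 2-fold higher, beside 9.60% and 8.31% of all genes. The median log2 ratio of the markers was -1.87. The authors' deposited table gives 3 of them, Mki67 and Plk1 included, an adjusted p below 0.1, as it does 0.871% of genes in the lower direction. Mki67, the common marker of dividing cells, has a log2 ratio of -2.26 per the authors' deposited table and the mitotic kinase Plk1 one of -2.08. The checkpoint kinase Bub1 has one of -2.07 there, with an adjusted p just above that limit (0.105 in the authors' deposited table). Rrm2, a ribonucleotide reductase subunit chosen after its value was seen, has one of -0.08 per the authors' deposited table. The Cdkn3 window held 3 copies of CCAAT and 1 of TTTGAA (both strands searched). At least 1 copy is present in 33.8% and 16% of all windows, and the share with 3 copies of CCAAT was not counted. The part of proliferation in the Cdkn3 and Cdkn2c values was not tested, and in bulk RNA fewer cells of a kind and less RNA per cell cannot be told apart.

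Levels were compared between genes as the mean normalized count of the authors' deposited table divided by the length of the longest annotated transcript in kilobases. Cdkn1a stood at 14767 per kilobase, Cdkn2a at 10775, Cdkn2b at 5158 and Cdkn1c at 2011. Cdkn1b stood at 693, Cdkn2d at 654, Cdkn2c at 238 and Cdkn3 at 161. These are means over both conditions and contain the differences above, so levels and their order within either condition can differ from them. With the median transcript length in place of the longest, Cdkn1c (5732) moved above Cdkn2b (5158) and Cdkn3 (344) above Cdkn2c (329), while the other 4 kept their place. The spread over libraries is unknown, so neighbours in this order are not shown to differ.

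**Figure D3:**
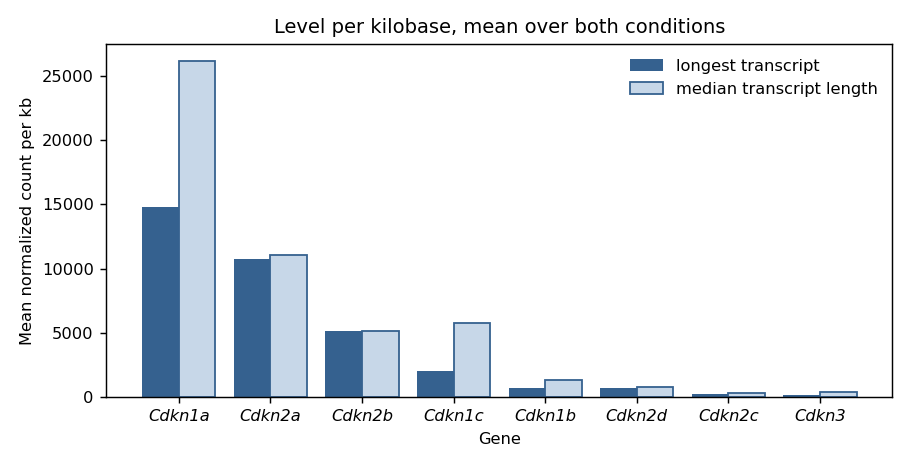
Mean normalized count over both conditions per kilobase (vertical axis) for the 8 inhibitor genes, in order of the value with the longest annotated transcript (dark bars), beside the value with the median transcript length (light bars). Cdkn1a, Cdkn2a and Cdkn2b lead by the longest transcript, and Cdkn1c passes Cdkn2b with the median length.

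Among cell cycle cyclins and kinases, including the CDK-activating kinase, which the inhibitors do not target, the genes past 2-fold were those of cyclins E2, A2, B1 and B2 and of CDK1, all lower in condition B. That is 5 of 15 genes at the minimum mean lower and 0 higher, beside 9.60% and 8.31% of all genes. The median log2 ratio of the list was -0.13. The targets of the Ink4 proteins, Cdk4 and Cdk6, have log2 ratios of -0.12 and -0.01 per the authors' deposited table, and their partner cyclin D1 (Ccnd1) has one of 0.84. Among Cip/Kip targets, Cdk2 has a log2 ratio of -0.91 and cyclin E1 (Ccne1) one of -0.31 per the authors' deposited table. The later cyclins Ccna2, Ccnb1 and Ccnb2 have log2 ratios of -2.03, -1.77 and -1.55 per the authors' deposited table, and the mitotic kinase Cdk1 one of -1.39. The authors' deposited table gives 1 gene of this list, Ccna2, an adjusted p below 0.1 (0.0923).

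Pocket proteins hold E2F factors in check until these kinases phosphorylate them. Of 20 genes of this list, which includes the DREAM complex, 0 were past 2-fold higher and 6 past 2-fold lower. The shares among all genes were 8.31% and 9.60%. The median log2 ratio of the list was -0.16. The retinoblastoma gene Rb1 has a log2 ratio of 0.12 per the authors' deposited table. Of the other pocket proteins, named after their values were seen, Rbl1 (p107) stands at -1.84 and Rbl2 (p130) at -0.04 per the authors' deposited table. The repressor genes E2f8 and E2f7 and the B-Myb gene Mybl2, all induced in cycling cells, have log2 ratios of -2.08, -1.93 and -2.01 per the authors' deposited table. The authors' deposited table gives 0 of the 20 an adjusted p below 0.1.

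Of 24 genes of the Arf and p53 arm, 4 were past 2-fold higher in condition B and 0 past 2-fold lower. Among all genes 17.9% were past 2-fold in either direction, 8.31% higher and 9.60% lower. The log2 ratios of the list ran from -0.55 to 1.53, with a median of 0.28. Mdm2, both a target of p53 and the ligase that Arf holds off, has a log2 ratio of 1.32 per the authors' deposited table. There the death receptor gene Fas has one of 1.53, the antiproliferative Btg2 one of 1.15 and the p53 gene Trp53 one of -0.23. The authors' deposited table gives 0 genes of this list an adjusted p below 0.1. The upstream Cdkn1a window, chr17:29090729-29090978 on the plus strand, is shown because p53 is known to bind ahead of this gene. Capitals mark ACATGT, a hexamer chosen after the sequence was seen.
Cdkn1a upstream start: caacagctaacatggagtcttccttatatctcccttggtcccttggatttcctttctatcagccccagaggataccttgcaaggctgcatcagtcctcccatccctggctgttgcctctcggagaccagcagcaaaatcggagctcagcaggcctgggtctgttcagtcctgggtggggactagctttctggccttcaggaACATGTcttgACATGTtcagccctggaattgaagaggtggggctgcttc
This window held 2 copies of ACATGT, on both strands with each place counted once. Of all windows 0.247% hold 2 or more copies and 4.58% hold at least 1. The p53 half-site consensus matched this Cdkn1a window 2 times, 1 of them over a copy of ACATGT. It matched the Cdkn2d window 1 time, and occurs at least once in 7.13% of all windows. The upstream Cdkn1a window held 2 CpG dinucleotides, and the window of the downstream start held 19 CpG dinucleotides and 0 copies of ACATGT.

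Genes that act on the inhibitors form 3 lists, whose counts past 2-fold in either direction stand beside the 17.9% of all genes. Of 13 genes of their turnover by ubiquitin ligases, 0 were higher and 2 lower, with a median log2 ratio of -0.01. The 2 were Dtl, which directs p21 to the CUL4 ligase, at -1.60 per the authors' deposited table, and Skp2, the receptor that directs p27 to degradation, at -1.05. Of 17 Polycomb and T-box repressors of the Ink4-Arf locus, 1 was higher and 2 lower, with a median of -0.27. The lower ones were the methyltransferase gene Ezh2 at -1.63 and Phc1 at -1.43 per the authors' deposited table, and Bmi1, the best known repressor of the locus, stands at -0.44. Tbx2, a repressor of Cdkn2a and Cdkn1a in other cells, has the largest log2 ratio of the list in the authors' deposited table, 4.80. Its mean normalized count there is 412 (adjusted p = 0.000387 in the authors' deposited table). Of 19 transcriptional regulators of inhibitor genes, 3 were higher and 2 lower, with a median of 0.00. Klf4 has a log2 ratio of 1.67 per the authors' deposited table, Hes1 one of 1.66 and Id1 one of 1.54. There Foxm1, which promotes mitotic genes, has one of -1.90, Ets2 one of -1.83 and Foxo3, an activator of Cdkn1b, one of 0.05. The part of the genes of these 3 lists in the inhibitor values was not tested.

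**Figure D4:**
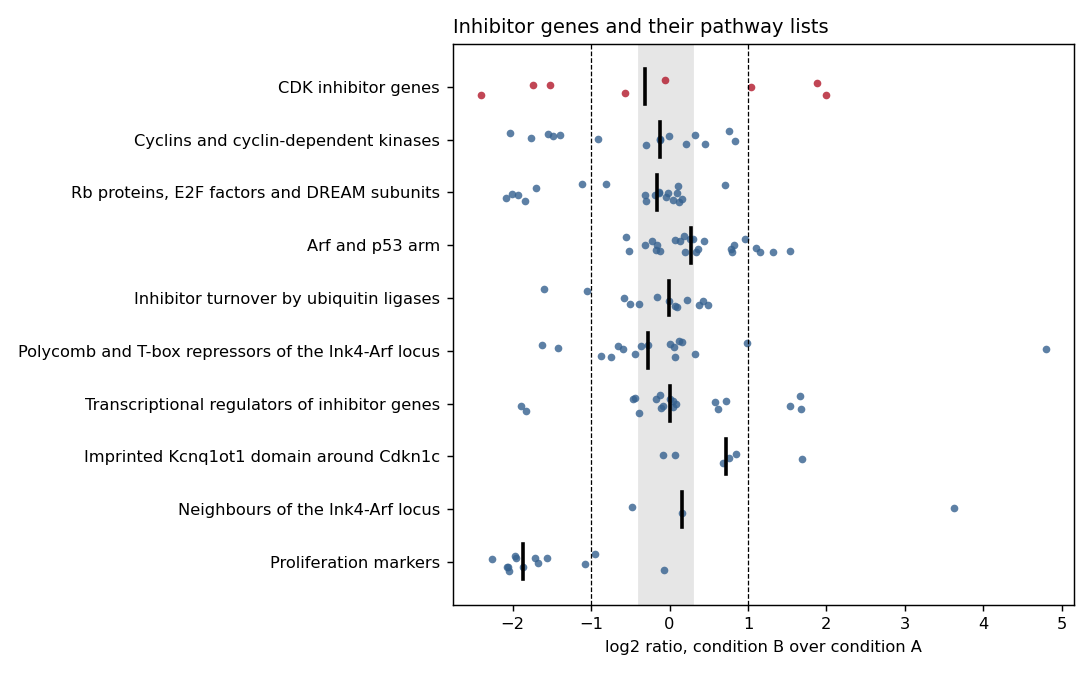
Log2 ratio of condition B over condition A (horizontal axis) for each inhibitor gene (red) and each gene of 9 pathway lists at the minimum mean (blue), with a black bar at the median of each list. The grey band spans the quartiles of all genes, -0.39 to 0.30, and dashed lines mark 1 and -1. The inhibitor genes spread over both sides, while 11 of 13 proliferation markers lie left of -1.

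The label of the cells and the targeted genes were set beside these values. The 8 fibroblast markers all reached the minimum mean, with mean normalized counts up to 550534 for Fn1. Of them 2, Thy1 and Pdgfra, were past 2-fold higher in condition B and 0 past 2-fold lower, beside 8.31% and 9.60% of all genes. The authors' deposited table gives Thy1 and Pdgfra adjusted p-values of 0.00133 and 0.0191, and 1.42% of genes were higher at an adjusted p below 0.1. Of markers of other cells, 1 of 5 epithelial, 2 of 4 endothelial, 2 of 4 blood cell (of those in the table) and 0 of 4 pluripotent markers reached it, with summed means of 142, 556, 127 and 42.4. The blood marker Tyrobp and the pluripotent marker Zfp42 are listed at 0, and the endothelial Pecam1 and Cdh5 at means of 9.80 and 8.43. Of those at the minimum, the endothelial Kdr (mean 418) and Tek have log2 ratios of 2.78 and 1.21 per the authors' deposited table. There the blood markers Csf1r and Cd68 have log2 ratios of 1.05 and 0.18, and the epithelial Krt18 one of -2.29. The part of such cells in the inhibitor values was not tested. Tet1 and Tet2 have log2 ratios of -1.82 and -0.74 per the authors' deposited table, and since 1 value per gene may include reads outside a deleted part, they check no label.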

How the data were processed

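Per the labels' protocols, libraries were built from DNase-treated total RNA using TruSeq RNA v2. TopHat2 2.0, DESeq and build mm9 appear in the submitters' processing notes. The counter and the annotation were not given in the sources used here. A deposited signal column is the authors' mean normalized count, reads on a gene scaled by a size factor and averaged over conditions. The deposited fold, or ratio, is the authors' value of condition B over condition A, and the deposited log2 ratio is its base-2 logarithm with no pseudocount. The p-values, raw and adjusted, were computed by the authors. The mean normalized counts sum to 58127871 over 23365 genes.

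The table also holds 2 columns of values, 1 per condition, whose names match neither label; they were not used, so values per library, counting intervals, pseudocounts and equal totals were not analysed here, and the precision of single ratios is unknown. With no replicates no test was run. The 8 genes and 9 pathway lists were chosen with earlier results of these data known. Named were the 8 genes, a fixed set of partners and, from each list, up to 3 genes past 2-fold in each direction; genes beside the members were taken from the RefSeq gene order after the data were seen. Lengths came from GENCODE M21. Alternatives were other minimum means and fold limits, centring on the median, a trimmed mean of ratios (30% of ratios and 5% of means cut at each end) and the median transcript length. On simulated data for condition B over condition A with 12401 genes, the 2-fold rule called 100% of genes at log2 ratios of 1.5 and 3 and 0% of unchanged genes, with counting noise alone. This checks that the rule runs as written. It holds no variation between cultures, so it gives no error rate for these libraries. Python 3.11.15, pandas 2.3.3 and numpy 2.4.6 were used.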

Additional observations from a re-analysis of the deposited data

How the results depend on the processing

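The 3 higher and 3 lower inhibitor genes were counted again with a 1.5-fold limit, and each count stayed 3. Minimum means of 10, 200 and none also left each count at 3, but could not change it, since the lowest mean of the 8 genes was 315. Centring on the median of all genes and a trimmed mean of ratios gave 3 as well. With a limit of 2 on the log2 scale, 0 were higher, since Cdkn2a stood just under that limit, and 1 was lower, Cdkn1b. With an adjusted p under 0.05 in place of 0.1, 1 inhibitor gene remained of 2 in the authors' deposited table. The order per kilobase kept 4 of 8 places with the median transcript length, which by construction favours genes with short annotated transcripts. Both rescalings raised all log2 ratios by 0.04, and all 16 member values and 26 list medians stayed on their side of a log2 size of 1. A shift of this size and direction could not move any of them across that limit, so these 2 settings do not test the counts of inhibitor genes. Of 196 list counts under the alternatives, 164 stayed within 1.5 times, 14 were smaller and 18 larger. These cover the cell type marker lists as well as the 9 pathway lists. Many of the 164 were counts of 0 that stayed 0, and a count of 0 cannot fall, so the 164 overstate how stable the lists are. Tbx3 and Ccng1, at log2 ratios of 0.99 and 0.97, passed 2-fold under both rescalings. No paired analysis was possible because each genotype had 1 library. No replicate could be left out for the same reason, and pseudocounts and equal totals were not run.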
